A study of Mus musculus with 5 samples.

Results

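The 10 genes described here report on fibroblast growth factor (FGF) and ERK signalling and were followed through 5 single-cell RNA libraries of mouse embryonic stem cells. They are the ligand gene Fgf4, the feedback inhibitor genes Dusp6, Spry2 and Spry4, the ETS transcription factor genes Etv4 and Etv5, and the immediate early genes Egr1, Fos, Jun and Ier2. The 10 were picked by gene symbol alone out of 32285 genes in the count matrices, and each symbol was found. All libraries came from REX-1 RFP cells, a line in which the promoter of Rex1 (Zfp42), a gene of naive pluripotency, drives a red fluorescent protein, and all cells were cultured for 72 h. The group ND was grown without leukaemia inhibitory factor (LIF), the cytokine that holds mouse embryonic stem cells undifferentiated, and the group NS was grown with it. The remaining groups received LIF together with sorbitol, a sugar alcohol used to make a culture medium hyperosmotic, at 200, 250 or 300 mM. The names NS and ND are used as in the labels, which do not spell them out.

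In mouse embryonic stem cells FGF4 is made and sensed by the same cells, and its receptors pass the signal through RAS and the kinases RAF, MEK and ERK. ERK activity lets cells leave naive pluripotency, whereas LIF and its effector STAT3 work against that exit. ERK also induces its own brakes, among them the ERK phosphatase DUSP6 and the Sprouty proteins, and the ETS factors ETV4 and ETV5, so the mRNA of these genes is often read as a gauge of pathway output. Immediate early genes are switched on within minutes of a stimulus without new protein synthesis, by ERK and also by the stress kinases JNK and p38, which osmotic shock activates in many cell types.

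Each group is 1 library, so every ratio below compares libraries and not conditions, batch and condition cannot be told apart, and no p-value is given. The matrices held 10000 barcodes per library, of which 9240 to 10000 passed the filters, and total unique molecular identifier (UMI) counts of 8404105 to 22158653. The ND and sorbitol libraries had medians of 801 to 939 UMIs per kept barcode, against 2135 in NS, the deepest. Levels are CPM, a gene's UMIs in all kept barcodes of a library scaled to a common total, and intervals are 95% intervals that cover counting error only. A gene counted as measured with at least 5 CPM in either library of a comparison, and as higher or lower when its CPM differed at least 1.5-fold. With CPM the median measured gene had a log2 ratio to NS of 0.08 in ND and of 0.20, 0.23 and 0.29 at 200, 250 and 300 mM sorbitol. Median-of-ratios scaling, the second scaling used, shifted every log2 ratio to NS by -0.08 in ND and by -0.16, -0.20 and -0.25 over the doses. Summed markers of embryonic stem cells stood at 5584 CPM in ND, 6777 CPM in NS and 8028, 8766 and 7988 CPM over the doses, with all 8 of the markers detected in each library. Dppa5a alone made up most of each sum, with 3653 CPM in ND, 4855 CPM in NS and 5931, 6237 and 5397 CPM over the doses. Against NS, 7 of the 8 markers were within 1.5-fold in ND and 6, 7 and 6 over the doses. In ND none was higher and 1 lower (Tdgf1, 2.13-fold), beside 10% and 7.07% of all genes. Over the doses 1, 1 and 2 were higher, beside 26.8%, 26.5% and 32.8% of all genes. Sox2 was higher at each dose and Zfp42 at 300 mM. Only Utf1, at 200 mM, was lower, beside 11%, 8.69% and 10.6% of all genes over the doses. With median-of-ratios scaling 1 was higher and 2 lower at 300 mM. The median log2 ratio of the 8 markers in ND was -0.02.

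Across the 10 genes the libraries fell into no single order. Spry2 climbed with the sorbitol dose, Fos and Egr1 peaked at 200 mM, Etv4 was highest in NS, Etv5 and Dusp6 were highest in ND, and Jun and Ier2 varied least. The summed level of the 10 genes was 585 CPM in ND, 570 CPM in NS and 486, 596 and 643 CPM at 200, 250 and 300 mM, so the sum hides those opposite patterns. Because the values are sums over barcodes, fewer cells that express a gene and less of its RNA per cell cannot be told apart in them.

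**Figure D1:**
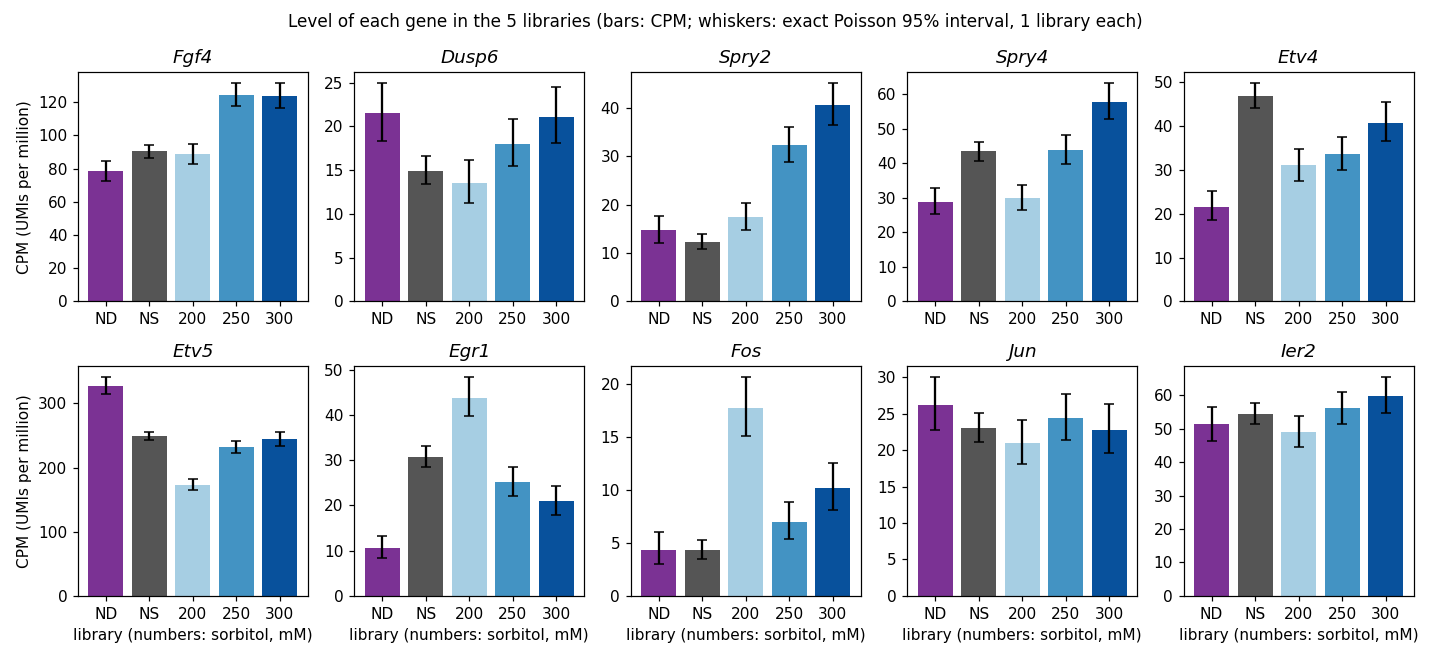
Level of each of the 10 genes in ND, in NS and at 200, 250 and 300 mM sorbitol, as CPM on an axis from 0 that differs between panels; whiskers are exact Poisson 95% intervals, with 1 library per bar. Spry2 reached 40.6 CPM at 300 mM against 12.3 CPM in NS, Fos and Egr1 were highest at 200 mM, and the whiskers of Jun overlapped between every neighbouring pair of libraries in its order of levels.

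Fgf4 (ENSMUSG00000050917; mm10 chr7:144847367-144865243, plus strand) encodes the FGF ligand on which embryonic stem cells depend for their own ERK activity. Its level was 78.3 CPM in ND, 90.4 CPM in NS and 88.6, 125 and 124 CPM at 200, 250 and 300 mM sorbitol. The 250 and 300 mM libraries were thus the high ones, with intervals that overlapped each other and lay clear of the other 3. The log2 ratio to NS was -0.21 (-0.34 to -0.08) in ND, -0.03 (-0.15 to 0.09) at 200 mM, 0.46 (0.36 to 0.57) at 250 mM and 0.45 (0.34 to 0.56) at 300 mM. None of these reached 1.5-fold. Only against ND did the 300 mM library pass it, at 1.58-fold higher, and with median-of-ratios scaling that log2 ratio of 0.66 became 0.49 and no longer counted.

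The feedback inhibitors did not behave as a block. Dusp6 (ENSMUSG00000019960; chr10:99263231-99267489, plus strand), whose product is a phosphatase that removes the activating phosphates from ERK, stood at 21.5 CPM in ND, 14.9 CPM in NS and 13.6, 18.0 and 21.1 CPM over the doses. ND and 300 mM were the 2 high libraries, and each neighbouring pair in the order of levels overlapped in its intervals. The log2 ratio was 0.53 (0.25 to 0.80) for ND against NS and 0.50 (0.23 to 0.77) for 300 mM against NS, both short of 1.5-fold. Against 200 mM the 300 mM library was 1.56-fold higher (log2 0.64, 0.30 to 0.98), and this fell under the threshold, to 0.55, with median-of-ratios scaling.

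Spry2 (ENSMUSG00000022114; chr14:105891947-105896819, minus strand) encodes a Sprouty protein, an inhibitor that acts between the receptors and RAF. It was measured at 14.7 CPM in ND, 12.3 CPM in NS and 17.5, 32.3 and 40.6 CPM at 200, 250 and 300 mM, from 116 UMIs in ND, 273 in NS and 161, 315 and 337 over the doses. ND, NS and 200 mM formed the low end, where each neighbour overlapped the next, and the 250 and 300 mM libraries lay above with intervals apart from these and from each other. Relative to NS the log2 ratio was 0.50 (0.21 to 0.79) at 200 mM, 1.39 (1.15 to 1.63; 2.62-fold) at 250 mM and 1.72 (1.49 to 1.96; 3.30-fold) at 300 mM, against 0.25 (-0.07 to 0.57) in ND. The 300 mM library was 2.33-fold higher than the 200 mM library and 2.77-fold higher than ND. With median-of-ratios scaling the ratios at 250 and 300 mM were 1.18 and 1.47, so the direction held. Since Spry2 had the largest ratio to NS of the 10 genes at 250 and 300 mM, its promoter is shown, from 250 bases before to 50 bases from the annotated start on (chr14:105896770-105897069, GRCm38.p6, minus strand, RefSeq, written 5′ to 3′). Capitals mark a CCGGAA, the short core that ETS factors bind, which starts 33 bases after the start site.
Spry2: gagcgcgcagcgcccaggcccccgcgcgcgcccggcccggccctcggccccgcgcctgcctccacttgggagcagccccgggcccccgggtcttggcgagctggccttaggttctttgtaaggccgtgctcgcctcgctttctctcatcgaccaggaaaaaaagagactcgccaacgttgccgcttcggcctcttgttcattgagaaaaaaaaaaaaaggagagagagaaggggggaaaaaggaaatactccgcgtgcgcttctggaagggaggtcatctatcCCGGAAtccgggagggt

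Spry4 (ENSMUSG00000024427; chr18:38586247-38601415, minus strand), a second Sprouty gene, stood at 28.8 CPM in ND, 43.5 CPM in NS and 29.8, 43.7 and 57.9 CPM over the doses. The 300 mM library was highest on its own, NS and 250 mM overlapped in the middle, and ND and 200 mM overlapped at the bottom. ND was 1.51-fold lower than NS (log2 -0.59, -0.81 to -0.38), just past the threshold, and the 200 mM library was 1.46-fold lower (log2 -0.54, -0.74 to -0.35), which counted as lower (-0.70) with median-of-ratios scaling. At 300 mM it was 1.33-fold higher than in NS, 1.94-fold higher than at 200 mM (log2 0.96, 0.74 to 1.18) and 2.01-fold higher than in ND (log2 1.01, 0.77 to 1.24). Spry2 and Spry4 were therefore both higher at 300 mM than at 200 mM, but at 200 mM they lay on opposite sides of NS. The GENCODE annotation places 2 further gene models, Gm27369 and Gm27804, on the opposite strand of Spry4, and they are not among the genes of the matrices.

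The related ETS factor genes Etv4 and Etv5 went in opposite directions without LIF. Etv4 (ENSMUSG00000017724; chr11:101769742-101785371, minus strand) had 21.6 CPM in ND, 46.9 CPM in NS and 31.0, 33.6 and 40.8 CPM over the doses. Etv5 (ENSMUSG00000013089; chr16:22381309-22439719, minus strand) had 328 CPM in ND, 249 CPM in NS and 174, 232 and 245 CPM. ND was thus the lowest library for Etv4 and the highest for Etv5, in both cases with an interval clear of all others. For ND against NS, the log2 ratio of Etv4 was -1.12 (-1.36 to -0.88; 2.17-fold lower) and that of Etv5 was 0.40 (0.33 to 0.46; 1.31-fold higher, short of the threshold).

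In sorbitol both ETS genes were lowest at 200 mM among the 3 doses and increased from dose to dose. Etv4 was 1.51-fold lower at 200 mM than in NS (log2 -0.60, -0.79 to -0.41), then 1.40-fold lower at 250 mM and 1.15-fold lower at 300 mM, where its interval overlapped that of NS. Etv5 was 1.44-fold lower at 200 mM (log2 -0.52, -0.60 to -0.44), then at -0.11 (-0.18 to -0.04) and -0.03 (-0.10 to 0.05) at 250 and 300 mM. With median-of-ratios scaling Etv5 at 200 mM (-0.68) and Etv4 at 250 mM (-0.69) counted as lower as well. The 300 mM library had 1.88-fold more Etv4 than ND (log2 0.91, 0.64 to 1.19) and 1.34-fold less Etv5 (log2 -0.42, -0.51 to -0.34), and the Etv5 difference counted, at -0.59, with median-of-ratios scaling.

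Among the immediate early genes Egr1 and Fos differed widely between libraries, and Jun and Ier2 by no more than 1.25-fold. Egr1 (ENSMUSG00000038418; chr18:34859823-34864984, plus strand), which encodes a zinc finger transcription factor, stood at 10.6 CPM in ND, 30.8 CPM in NS and 43.8, 25.2 and 20.9 CPM at 200, 250 and 300 mM. The ND library was the lowest and the 200 mM library the highest, both with intervals apart from their neighbours, and the 4.12-fold span between them was the widest of the 10 genes. ND was 2.90-fold lower than NS (log2 -1.53, -1.88 to -1.21). The 200 mM library was 1.42-fold higher than NS (log2 0.51, 0.33 to 0.69) and the 300 mM library 1.48-fold lower (log2 -0.56, -0.81 to -0.32), which counted as lower, at -0.81, with median-of-ratios scaling. Between the doses, 300 mM was 2.10-fold lower than 200 mM (log2 -1.07, -1.34 to -0.81), yet 1.96-fold higher than ND.

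Fos (ENSMUSG00000021250; chr12:85473890-85477273, plus strand) encodes one partner of the AP-1 transcription factor. It had 4.30 CPM in ND, 4.33 CPM in NS and 17.7, 6.96 and 10.1 CPM over the doses, from 34 UMIs in ND, 96 in NS and 163, 68 and 84 over the doses. The 200 mM library stood apart above all others, the 250 and 300 mM libraries overlapped, and ND and NS were both under 5 CPM, so that their ratio was not counted. Against NS, Fos was 4.08-fold higher at 200 mM (log2 2.03, 1.66 to 2.41), 1.61-fold higher at 250 mM (log2 0.68, 0.21 to 1.15) and 2.34-fold higher at 300 mM (log2 1.23, 0.79 to 1.66). With median-of-ratios scaling the 250 mM value became 0.48 and no longer counted. The 300 mM library was 1.75-fold lower than the 200 mM library (log2 -0.80, -1.20 to -0.42) and 2.36-fold higher than ND (log2 1.24, 0.65 to 1.86).

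Jun (ENSMUSG00000052684; chr4:95049034-95052222, minus strand), which encodes the other AP-1 partner, had 26.2 CPM in ND, 23.0 CPM in NS and 20.9, 24.4 and 22.8 CPM over the doses. Ier2 (ENSMUSG00000053560; chr8:84661331-84662852, minus strand), a small immediate early gene of the serum response, had 51.4 CPM in ND, 54.6 CPM in NS and 49.1, 56.1 and 59.9 CPM. For both genes every neighbouring pair in the order of levels overlapped, and the highest library exceeded the lowest by 1.25-fold for Jun and 1.22-fold for Ier2. The interval of the Jun log2 ratio to NS ran from -0.38 to 0.11 at 200 mM and from -0.26 to 0.23 at 300 mM, so at this depth no difference of 1.5-fold in either direction lay within it. The signs of these small ratios carry no weight, because those of Jun at 250 mM and of Ier2 at 250 and 300 mM turned negative with median-of-ratios scaling. Junos, a gene antisense to Jun, had only 4 to 8 UMIs per library, and whether reads were assigned by strand is not given in the sources used here.

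Fos and Jun, the AP-1 partners of which Fos spanned 4.11-fold and Jun 1.25-fold, are shown by their promoters as the clearest contrast within the immediate early genes (chr12:85473640-85473939 on the plus strand and chr4:95052173-95052472 on the minus strand, GRCm38.p6, RefSeq, 5′ to 3′, with 250 bases before the start site). Capitals mark TGACG, the short form of the cyclic AMP response element, in Fos, and TGACATCA, a variant AP-1 site for which the Jun promoter is known, in Jun.
Fos: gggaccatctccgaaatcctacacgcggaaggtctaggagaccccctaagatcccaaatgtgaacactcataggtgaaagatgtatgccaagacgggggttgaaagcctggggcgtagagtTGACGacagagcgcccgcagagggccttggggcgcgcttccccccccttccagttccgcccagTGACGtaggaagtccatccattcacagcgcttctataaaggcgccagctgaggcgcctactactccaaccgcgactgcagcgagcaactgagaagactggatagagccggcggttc
Jun: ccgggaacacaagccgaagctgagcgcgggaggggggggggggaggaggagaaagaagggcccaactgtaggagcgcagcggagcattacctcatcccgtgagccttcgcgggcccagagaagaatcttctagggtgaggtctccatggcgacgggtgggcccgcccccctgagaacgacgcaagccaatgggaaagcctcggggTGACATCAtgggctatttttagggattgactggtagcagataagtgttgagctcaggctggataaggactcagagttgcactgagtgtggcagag

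The Fos promoter held TGACG at positions -129 and -66 from its start site, and the Jun promoter held its TGACATCA at -45. RefSeq promoter windows of 300 bases were given for 6 of the 10 genes, with 7 windows in all because Etv5 had 2, and those of genes on chromosome 18 were not used. On both strands, none of the 7 held the CArG box, TGACGTCA, TGANTCA, CCGGAAGT, GCGGGGGCG or GCGTGGGCG, forms held by 1.63%, 1.79%, 7.81% and 3.89% of all 32851 promoter windows for the first 4 and by 3.47% for either of the last 2. The shorter forms TGACG, TGACNTCA and CCGGAA were searched after those gave no match, and they occur in 20.8%, 8.83% and 14.9% of all windows. TGACNTCA includes the TGACGTCA of the first search, and CCGGAA lies within CCGGAAGT. Only the 3 printed promoters held a match to any form, and those of Fgf4, Dusp6 and Etv5 held none. The absence of a match says only that these letters are not in these windows, and no match is evidence of binding.

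Seen by comparison, the libraries without and with LIF differed in 3 of the 9 measured genes. Egr1, Etv4 and Spry4 were lower in ND, which is 33.3% of the measured genes beside 7.07% of the 10210 genes measured in this comparison. None was higher, beside 10% of all genes. The counts were 3 lower and 0 higher with median-of-ratios scaling too, beside 9.35% and 7.21% of all genes. The median log2 ratio of the 9 was -0.09 and that of all genes 0.08. The largest ratios upwards, Dusp6 at 0.53 and Etv5 at 0.40, were short of the threshold. The ERK targets thus split in ND, with Dusp6 and Etv5 above NS and Spry4, Etv4 and Egr1 below it, each with an interval that did not include 0. Depth and the share of mitochondrial UMIs differed as well, at 827 UMIs per barcode and 4.98% in ND against 2135 UMIs and 3.98% in NS. When every barcode was thinned to 500 UMIs, Egr1 (-1.42) and Etv4 (-1.33) were still lower, while Spry4 (-0.45) fell short of the threshold and Dusp6 (0.71) passed it as higher. That gave 2 lower and 1 higher of 10 measured genes, beside 8.9% and 12.2% of all genes thinned in the same way. Thinning was 1 random draw, and Dusp6 was then seen in only 97 barcodes in ND and 64 in NS. The part of the mitochondrial share was not tested.

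The comparisons of sorbitol with NS all use the same NS library, so their values are set side by side and are not independent. At 200 mM 1 gene of 10 was higher (Fos) and 1 lower (Etv4), beside 26.8% and 11% of all 10696 measured genes. At 250 mM 2 of 10 were higher (Spry2 and Fos) and none lower, beside 26.5% and 8.69% of 10624 genes. At 300 mM Spry2 and Fos were again the 2 higher ones and none was lower, beside 32.8% and 10.6% of 10671 genes. With CPM the shares were at or below those of all genes. Under median-of-ratios scaling the counts of higher and lower genes were 1 and 3, 1 and 1, and 2 and 1 over the doses, beside 19% and 16.4%, 16.1% and 15.1%, and 20.1% and 18.9% of all genes, so that at 200 mM the lower share, 30%, was then above its background. Thinning to 500 UMIs per barcode raised the number past the threshold to 4 of 10 at each dose. At 200 mM Fos (1.64), Egr1 (0.86) and Spry2 (0.72) were then higher and Etv4 (-0.67) lower, beside 27.9% and 11.7% of all genes. At 250 mM Spry2 (1.496), Dusp6 (0.60) and Fos (0.58, at the threshold) were higher and Etv4 (-0.81) lower, beside 27.2% and 9.62%. At 300 mM Spry2 (1.89), Fos (0.85), Spry4 (0.69) and Dusp6 (0.64) were higher and none lower, beside 33.3% and 11.6%. The thinned counts of higher genes were thus close to the shares of all genes too. The thinned ratios come from 1 random draw, have no intervals and rest on fewer UMIs. Fos, for example, was then seen in 39 barcodes at 250 mM and 26 in NS. The mitochondrial share was 5.61%, 5.78% and 6.13% over the doses against 3.98% in NS, and its part was not tested.

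**Figure D2:**
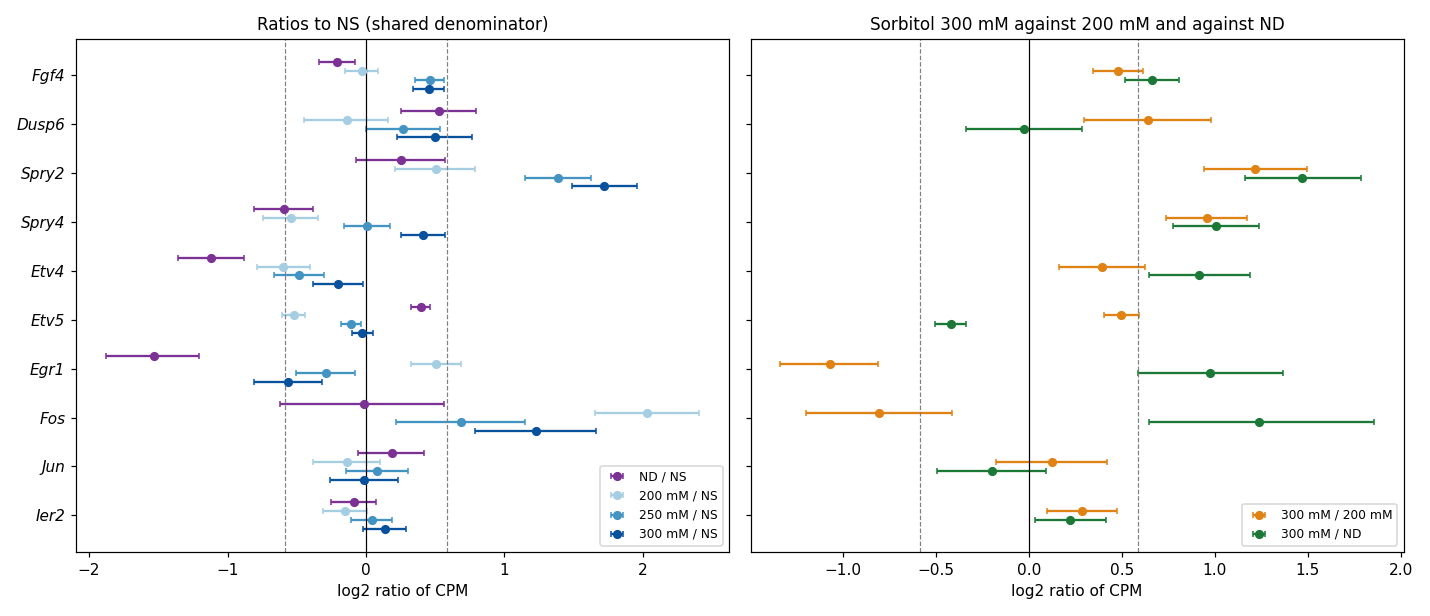
Log2 ratio of CPM for each of the 10 genes, with 95% counting intervals; left, ND and the 3 sorbitol doses against the shared NS library, and right, 300 mM sorbitol against 200 mM and against ND. Dashed lines mark 1.5-fold. Fos at 200 mM (2.03) and Spry2 at 300 mM (1.72) lay furthest to the right and Egr1 in ND (-1.53) furthest to the left. With median-of-ratios scaling Fos at 250 mM, Dusp6 at 300 against 200 mM and Fgf4 at 300 mM against ND drop inside the lines, and Etv5 and Spry4 at 200 mM, Etv4 at 250 mM and Egr1 at 300 mM against NS, and Etv5 at 300 mM against ND, cross the lower one.

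The comparison of doses differed from this. At 300 mM, 3 of the 10 genes were higher than at 200 mM (Spry2, Spry4 and Dusp6) and 2 lower (Egr1 and Fos), beside 5.53% and 4.14% of all 10672 measured genes. Among the 10, the 3 higher genes are feedback inhibitors and both of the lower ones are immediate early genes. The wider lists did not divide in this way, since 4 of 17 other measured immediate early genes were higher at 300 mM and none lower, and of 14 other feedback genes 1 was higher and 1 lower. The median log2 ratio of the 10 was 0.44, and that of all genes 0.09. With median-of-ratios scaling Dusp6 dropped out, and 2 genes were higher and 2 lower beside 3.37% and 5.61% of all genes. CPM increased at both dose steps for 6 of the 10 (Dusp6, Spry2, Spry4, Etv4, Etv5 and Ier2), beside 25.2% of 10773 genes, and decreased at both for 1 (Egr1), beside 12.9%. A step counts here whatever its size, and both steps had non-overlapping intervals for Spry2 and Spry4 only. These 2 libraries were close in depth, with 801 UMIs per barcode at 300 mM and 888 UMIs at 200 mM.

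The 300 mM library was also set against ND, as the sorbitol dose furthest from NS by its median gene against the loss of LIF. At 300 mM 6 genes were higher (Spry2, Fos, Spry4, Egr1, Etv4 and Fgf4) and none lower, beside 27.9% and 11.4% of all 10690 measured genes. With median-of-ratios scaling Fgf4 dropped out and Etv5 counted as lower, which gave 5 higher and 1 lower beside 19.8% and 17.1% of all genes. The median log2 ratio of the 10 was 0.79, and that of all genes 0.20. Depth was alike here too, with 801 and 827 UMIs per barcode.

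The rest of the pathway was described through lists of genes, beginning with ligands and receptors. Their counts stand beside 10% of all genes higher and 7.07% lower in ND, and beside 26.8%, 26.5% and 32.8% higher and 11%, 8.69% and 10.6% lower over the doses, all with CPM against NS. Of 21 other FGF ligand genes, 2 were measured in the comparison of ND with NS and both were higher. Fgf5, a ligand gene of the post-implantation epiblast, had 13.03 CPM in ND and 0.406 CPM in NS (log2 interval 4.02 to 6.17), and Fgf15 had 7.97 CPM in ND and 3.02 CPM in NS. Fgf22 was the only measured one at 200 mM, with 6.29 CPM against 2.12 CPM in NS, and none was measured at 250 or 300 mM. The receptor genes Fgfr1 and Fgfr2 were higher than NS in all 4 other libraries, which made 2 of 3 measured receptors higher and none lower in each comparison. Fgfr1 stood at 42.0 CPM in ND, 27.8 CPM in NS and 69.1, 58.9 and 70.7 CPM over the doses, and Fgfr2 at 13.3 CPM in ND, 3.34 CPM in NS and 8.35, 7.58 and 8.68 CPM. With median-of-ratios scaling Fgfr1 in ND no longer counted, and 1 receptor of the 3 (Fgfrl1) counted as lower at 250 mM.

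The kinase cascade itself was described from the adaptors to ERK. In ND 3 of 21 measured genes were higher and none lower, beside 10% and 7.07% of all genes. The 3 were Frs3, Mapk3 (ERK1) and Map2k2 (MEK2). With median-of-ratios scaling only Frs3 still counted, beside 7.21% of all genes higher. The list median log2 ratio in ND was 0.27 with CPM, beside 0.08 for all genes. At 200, 250 and 300 mM, 5, 4 and 7 of 20 were higher and 1 was lower at each dose, which became 1, 2 and 2 higher with 1, 1 and 2 lower under the other scaling. The higher counts with CPM lay near or below the 26.8%, 26.5% and 32.8% of all genes. Those under the other scaling lay below 19%, 16.1% and 20.1%. The lower counts were below the shares of all genes as well. The list medians of 0.18, 0.36 and 0.50 stood beside 0.20, 0.23 and 0.29 for all genes. Ksr1, a scaffold for RAF, MEK and ERK, had 7.34 CPM in ND, 7.72 CPM in NS and 20.3, 16.1 and 23.2 CPM over the doses. Hras was lower in sorbitol, with 197 CPM in ND, 176 CPM in NS and 90.04, 115 and 96.8 CPM over the doses. No gene of this list reached 1.5-fold between 300 and 200 mM.

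**Figure D3:**
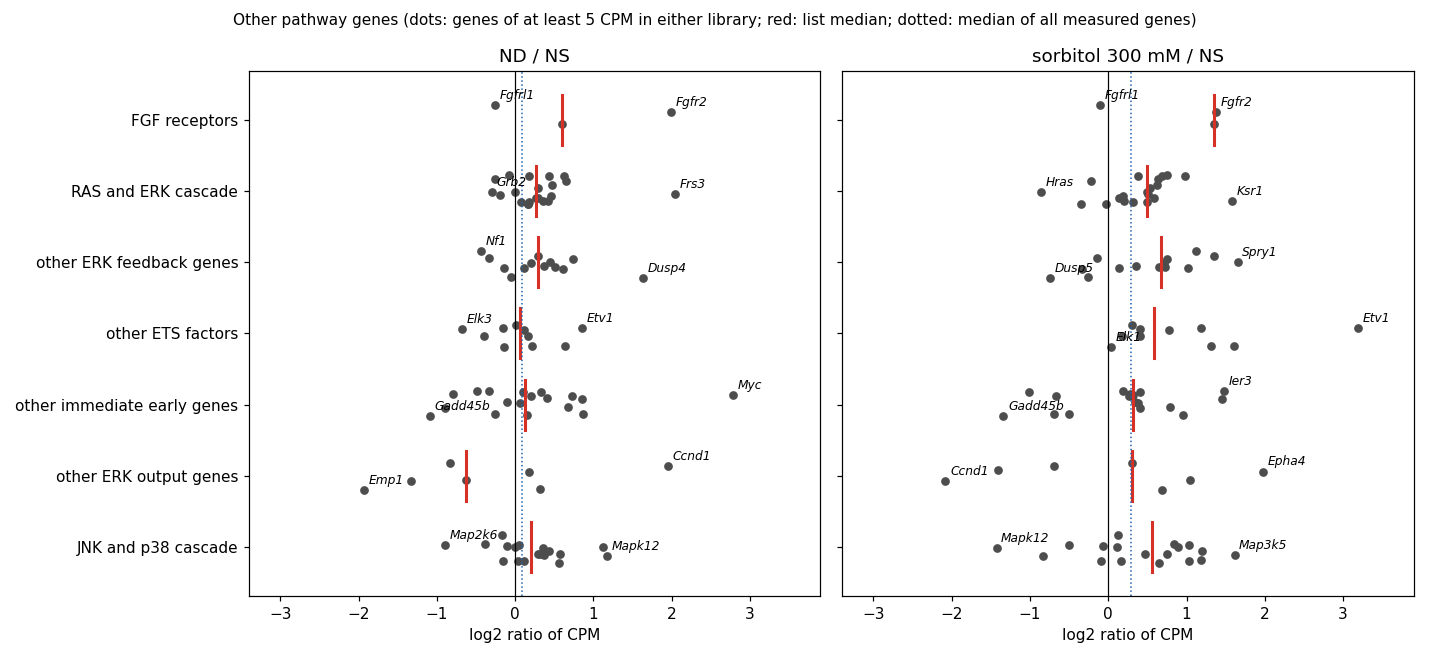
Log2 ratio of CPM for the other genes of the pathway by list, ND against NS on the left and 300 mM sorbitol against the same NS library on the right; each dot is 1 gene with at least 5 CPM in either library, red bars are list medians, the dotted line is the median of all measured genes, and the outermost genes are named. Etv1 at 300 mM (3.19) and Ccnd1, higher in ND (1.96) and lower at 300 mM (-2.08), lay far from the other genes of their lists, and both kept their direction with median-of-ratios scaling.

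For other feedback genes of the pathway, in ND 3 of 13 measured genes were higher and none lower, and at 200, 250 and 300 mM 4, 4 and 8 of 14 were higher with 1 lower each time. With median-of-ratios scaling these were 2 of 13, and 2, 2 and 4, with none lower in ND and 1, 1 and 2 lower over the doses. In ND the 3 of 13 lay above the 10% of all genes, and the 2 of 13 under the other scaling above 7.21%. The 4 of 14 at 200 and 250 mM lay near the shares of all genes (26.8% and 26.5%), and the 2 of 13 under the other scaling did not exceed theirs (19% and 16.1%). At 300 mM the 8 of 14 lay above 32.8%, and the 4 of 14 under the other scaling above 20.1%. The list median log2 ratio at 300 mM was 0.68 with CPM, beside 0.29 for all genes. The lower counts were below the shares of all genes. Spred2, which encodes a Sprouty-related inhibitor of RAS signalling, had 37.7 CPM in ND, 27.8 CPM in NS and 52.9, 51.9 and 70.9 CPM over the doses. Spry1, a further Sprouty gene, had 4.68 CPM in ND, 2.03 CPM in NS and 4.56, 3.79 and 6.39 CPM. Dusp4, which encodes a nuclear ERK phosphatase, had the largest ratio of this list in ND, with 16.1 CPM against 5.19 CPM in NS, while it had 3.25, 3.99 and 4.70 CPM in sorbitol. Between 300 and 200 mM, Spred1 was higher and Dusp5 lower among 14 measured genes, near the 5.53% and 4.14% of all genes.

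Of 10 other measured ETS factor genes, 2 were higher and 1 lower in ND, and 2, 6 and 5 were higher over the doses with none lower. With median-of-ratios scaling the counts were 1 higher and 1 lower in ND, and 2, 5 and 4 higher with 0, 2 and 0 lower over the doses. The 2 of 10 at 200 mM lay below the 26.8% of all genes, and the 6 and 5 of 10 at the upper doses above 26.5% and 32.8%. Etv1, the third gene of the subfamily of Etv4 and Etv5, had 8.22 CPM in ND, 4.56 CPM in NS and 15.1, 26.5 and 41.6 CPM at 200, 250 and 300 mM. It thus climbed over the doses, as Spry2 did, whereas Etv4 and Etv5 were at or below NS. Erf, which encodes an ETS repressor that ERK exports from the nucleus, had 32.9 CPM in ND, 36.5 CPM in NS and 47.6, 76.2 and 83.1 CPM over the doses. Between 300 and 200 mM, 3 of 10 were higher (Etv1, Erf and Elf1) and none lower, beside 5.53% and 4.14% of all genes.

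Against NS the other immediate early genes went both ways. In ND 5 of 18 measured genes were higher and 3 lower, and over the doses 5 of 16, 3 of 16 and 4 of 17 were higher and 4, 6 and 4 lower. In ND both counts lay above the shares of all genes, 10% and 7.07%. Over the doses the higher counts lay near or below 26.8%, 26.5% and 32.8% of all genes. The lower counts lay above 11%, 8.69% and 10.6%. With median-of-ratios scaling the higher counts over the doses were 3, 2 and 3 of 16, 15 and 16, beside 19%, 16.1% and 20.1% of all genes. The lower ones were 4, 6 and 5, beside 16.4%, 15.1% and 18.9%. Myc had 6.83 CPM in ND and 0.993 CPM in NS. Ier3, which encodes a stress and growth factor response protein, had 28.5 CPM in ND, 35.8 CPM in NS and 101, 86.2 and 99.6 CPM over the doses, so its 3 doses lay close together where those of Fos and Egr1 did not. Gadd45b, a stress response gene, was low in all 4 other libraries, at 17.3 CPM in ND, 36.9 CPM in NS and 18.4, 18.0 and 14.6 CPM over the doses. Atf3 and Ccn2 were lower at 200 mM, at 3.69 and 3.25 CPM, against 12.4 and 11.5 CPM in NS. Between 300 and 200 mM the list median log2 ratio was -0.01, beside 0.09 for all genes, and 13 of 17 were within 1.5-fold. The other 4 of 17 were higher and none was lower, beside 5.53% and 4.14% of all genes. These were Ccn2 (7.12 CPM at 300 mM against 3.25 CPM at 200 mM), Atf3 (6.15 against 3.69 CPM), Fosl2 (5.55 against 3.58 CPM, with a log2 interval of -0.04 to 1.32) and Arc (19.2 against 12.7 CPM). With median-of-ratios scaling 2 of 16 were higher, Ccn2 and Atf3, and none lower.

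The 7 further genes read as ERK output gave 1 higher and 4 lower in ND, 1 higher and 3 lower at both 200 and 250 mM, and 3 higher and 3 lower at 300 mM. These stand beside 10% of all genes higher and 7.07% lower in ND. Over the doses 26.8%, 26.5% and 32.8% of all genes were higher and 11%, 8.69% and 10.6% lower. With median-of-ratios scaling 1 more was lower at 200 mM, beside 16.4% of all genes. At 300 mM 1 fewer was then higher, beside 20.1% of all genes. Ccnd1, the cyclin D1 gene, had 113 CPM in ND, 29.1 CPM in NS and 7.16, 6.86 and 6.87 CPM over the doses. Epha4, a receptor tyrosine kinase gene, ran the other way, with 26.3 CPM in ND, 46.7 CPM in NS and 124, 137 and 184 CPM. Phlda1 had 11.4 CPM in ND, 17.6 CPM in NS and 12.6, 16.8 and 21.7 CPM. Between 300 and 200 mM, 4 of the 7 were higher (Epha2, Phlda1, Emp1 and Plk2) and none lower, beside 5.53% and 4.14% of all genes. Plk2 dropped out with median-of-ratios scaling, where 3.37% of all genes were higher.

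Among 18 measured genes of the JNK and p38 cascades, 2 were higher and 1 lower in ND, and 8, 6 and 9 were higher and 2 lower at each dose. With median-of-ratios scaling the counts over the doses were 6, 3 and 7 higher with 2, 3 and 3 lower. At 200 and 300 mM the 8 and 9 of 18 lay above the 26.8% and 32.8% of all genes. The 6 and 7 of 18 under the other scaling lay above 19% and 20.1%. At 250 mM the 6 of 18, and the 3 of 18 under the other scaling, lay near the 26.5% and 16.1% of all genes. The lower counts with CPM lay near 11%, 8.69% and 10.6%, and the ND counts near 10% and 7.07%. Atf2, a transcription factor gene downstream of both kinases, had 48.6 CPM in ND, 46.8 CPM in NS and 94.5, 75.6 and 106 CPM over the doses. Map3k5, which encodes the stress-activated kinase ASK1, had 7.46 CPM in ND, 3.43 CPM in NS and 8.79, 6.45 and 10.5 CPM. Mapk12, a p38 kinase gene, was lower than NS at every dose, with 11.8 CPM in ND, 5.19 CPM in NS and 1.74, 1.13 and 1.93 CPM over the doses. The second lower gene was Map2k7, which encodes a kinase that activates JNK, at 200 mM (12.4 CPM against 18.7 CPM in NS) and Mapk13, another p38 gene, at 250 and 300 mM (20.1 and 20.4 CPM against 36.4 CPM in NS). No gene of these cascades reached 1.5-fold between 300 and 200 mM with CPM, whereas 1 was lower with median-of-ratios scaling.

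Markers of other cell types were read beside these results. Summed trophoblast markers stood at 174 CPM in ND, 151 CPM in NS and 199, 242 and 258 CPM over the doses, with all 8 detected in each library. Summed markers of primitive endoderm, a lineage that requires FGF and ERK signalling, stood at 13.8 CPM in ND, 16.6 CPM in NS and 21.9, 26.3 and 32.7 CPM, with all 9 detected. Only 2 of these 9, Gata6 and Amn, were measured at each dose against NS. Gata6, the defining transcription factor of that lineage, had 2.15 CPM in ND, 5.01 CPM in NS and 6.29, 8.29 and 11.8 CPM. Amn had 0.885 CPM in ND, 1.90 CPM in NS and 5.97, 6.35 and 6.63 CPM. Others stayed near the floor without a steady rise, such as Dab2 with 2.78 CPM in ND, 1.71 CPM in NS and 2.17, 1.74 and 2.89 CPM. Cubn had 2 to 9 UMIs per library. Both sums increased over the doses along with Spry2 and Spry4, and their part in those values was not tested. The measured trophoblast genes went both ways against NS. In ND 3 of 6 were higher and 3 lower, beside 10% and 7.07% of all genes. Over the doses 3 of 5 were higher each time, beside 26.8%, 26.5% and 32.8% of all genes. The lower ones were 2, 0 and 1, beside 11%, 8.69% and 10.6%. With median-of-ratios scaling only 1 was still higher in ND, and at 250 mM 2 were higher and 1 lower. Hand1 had 4.81 CPM in ND, 29.4 CPM in NS and 60.4, 47.2 and 60.2 CPM over the doses. Tfap2c made up most of the trophoblast sum in ND. It had 109 CPM in ND, 47.3 CPM in NS and 86.1, 101 and 103 CPM over the doses. Krt18 had 18.7 CPM in ND, 30.7 CPM in NS, 10.3 CPM at 200 mM and 18.9 CPM at 300 mM. Summed fibroblast markers were 4.55 CPM in ND, 6.36 CPM in NS and 15.9, 9.01 and 12.4 CPM, highest at 200 mM like Fos and Egr1, with Col3a1 and Postn at 0 in all 5 libraries, and their part was not tested either. Their signal came from 4 or 5 of the 8 genes in each library.

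Single barcodes carried few UMIs of these genes. After thinning to 500 UMIs per barcode, which every kept barcode reached, Spry2 was seen in 0.747% of barcodes in ND, 0.56% in NS and 0.921%, 1.58% and 2.02% at 200, 250 and 300 mM. Without thinning the shares were 1.24% in ND, 2.71% in NS and 1.59%, 3.12% and 3.35% over the doses, where that of NS reflects its greater depth. For Fos the thinned shares were 0.227% in ND, 0.26% in NS and 0.811%, 0.39% and 0.467% over the doses, and without thinning 0.368% in ND, 0.95% in NS and 1.62%, 0.68% and 0.843%. Etv5 was seen in 15.6% of thinned barcodes in ND, 11.4% in NS and 8.503%, 11.04% and 11.6% over the doses. The order of libraries in the thinned shares was that of CPM for Spry2 and Fos, and for Etv5 it differed only in NS and 300 mM, whose intervals overlapped. No cell type lacking these genes was defined in the libraries, so the share that free RNA alone would give was not measured.

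The UMIs of a gene were spread over barcodes without visible clumping. The variance over the mean lay between 0.984 and 1.06 over the 50 combinations of gene and library when thinned, and between 0.982 and 1.07 without thinning, where 1 is the value of independent counts. At such low means this measure has little room to depart from 1, and no barcode held more than 6 UMIs of any of the 10. For pairs of genes the number of barcodes with both was set beside the product of their shares wherever that product was at least 10 barcodes. Over 118 combinations of pair and library the ratio ran from 0.50 to 1.55 with a median of 1.03. The interval lay above 1 for Spry4 with Etv5 in NS (424 barcodes beside 380; ratio 1.12, 1.01 to 1.23) and below 1 for Etv5 with Fos at 200 mM (12 barcodes beside 23.9; ratio 0.50, 0.26 to 0.88). Among the 43 combinations left after thinning no interval excluded 1. Barcodes of 1 library are not replicates, and 34 to 54 barcode sequences were shared between any 2 libraries.

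Genes with the most similar pattern were sought for the 9 genes with a mean of at least 10 CPM, which left out Fos. Likeness was the Euclidean distance between log2 CPM values, each centred on its own mean over the 5 libraries, among 8017 genes. The nearest gene to Spry4 was Phlda1, at a distance of 0.13, followed by Cobl at 0.28 and Ciart at 0.29, where the median gene lay at 0.97. For Etv4 it was Hbegf, which encodes a ligand of the EGF receptor, at 0.23 (32.8 CPM in ND, 85.6 CPM in NS and 52.2, 54.7 and 73.9 CPM over the doses), where the median gene lay at 1.05. For Spry2 it was Irf2bpl at 0.26, with 25.4 CPM in ND, 23.0 CPM in NS and 32.9, 50.3 and 64.3 CPM. The closest gene to Egr1 was Ddit3, which encodes the stress factor CHOP, and at 0.54 it was the most distant of the 9 nearest genes. It had 28.6 CPM in ND, 57.2 CPM in NS and 118, 72.7 and 61.3 CPM.

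For the flatter genes the nearest neighbours were closer still, at 0.09 for Fgf4 (Haus5), 0.09 for Dusp6 (Abcg2), 0.07 for Etv5 (Ptpa), 0.04 for Jun (Sdad1) and 0.04 for Ier2 (Bclaf3). With 5 points per gene and 8017 genes to choose from, a close match is easily found, and these are descriptions. The members of the pathway were themselves seldom near one another. Ranked among 8016 genes, the nearest of the 10 to Spry4 was Fgf4 at rank 60 and Spry2 came at rank 5617. From Etv4 the nearest was Spry4 at rank 166, and Etv5 stood at rank 6036. From Etv5 the nearest was Dusp6 at rank 611.

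**Figure D4:**
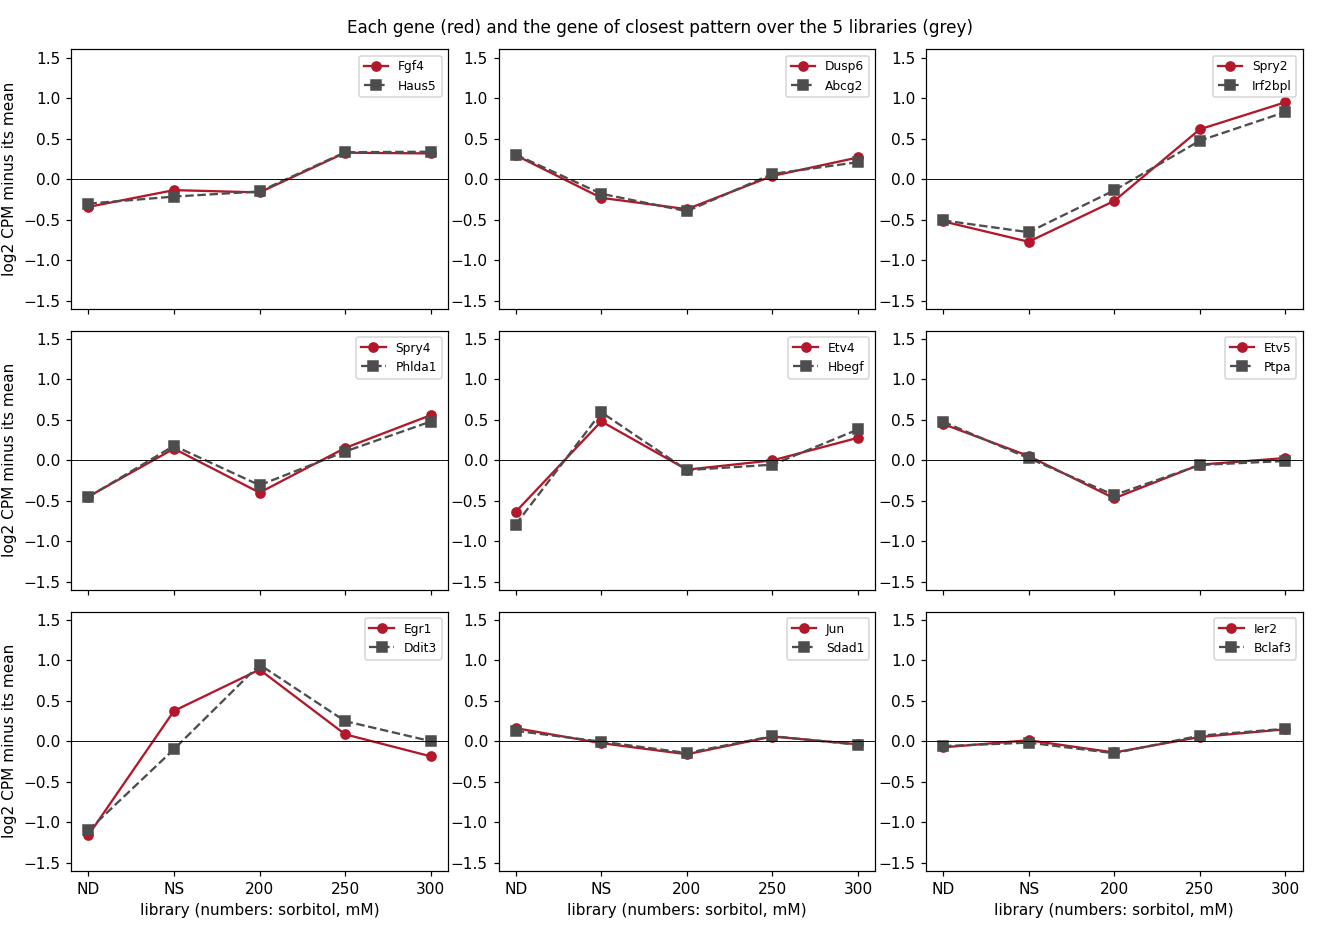
Log2 CPM minus its mean over the 5 libraries for 9 of the genes (red circles) and for the gene of closest pattern (grey squares), with the libraries ND, NS and 200, 250 and 300 mM sorbitol along the axis; each point is 1 library. The grey gene was chosen for its closeness, so the match is by selection; Spry4 with Phlda1 (distance 0.13) shows the dip at 200 mM and the peak at 300 mM, and Egr1 with Ddit3 (0.54) the loosest match. Median-of-ratios scaling lowers all sorbitol points relative to NS alike, by 0.16, 0.20 and 0.25.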

How the data were processed

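The data are 5 single-cell RNA libraries, 1 per culture condition. The deposited values are raw counts of UMIs for every gene in every barcode, which per the file headers the authors made with Cell Ranger 6.0.1. The submitters' processing notes also name R 4.1.2, Seurat 4.1.1 and mm10, without their roles. Trizol lysis and a Lexogen 3' kit stand in the labels' protocol although these are droplet matrices, and which steps apply was not settled. How reads were aligned, annotated and assigned by strand, and how barcodes were chosen, is not given in the sources used here.

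A barcode was kept if it had 500 or more genes and no more than 20% of its UMIs from mitochondrial genes; 9240 passed in ND, 10000 in NS and 9985, 10000 and 9849 over the doses. No doublet caller was run. In each matrix the barcode with most UMIs held only 2.93 to 3.31 times those of the one with fewest. UMIs were summed per library and scaled to CPM. Levels have exact Poisson 95% intervals, shares have Clopper-Pearson ones and ratios exact conditional binomial ones, and none covers more than counting error. Counts below 3 UMIs were raised to 3, so that such a ratio is a bound. Thinning used a fixed seed. Alternatives were median-of-ratios scaling, totals without mitochondrial and ribosomal protein genes, all barcodes, at least 1000 genes, the 5% of barcodes with most UMIs left out, thinning to 500 UMIs (700 for shares), a 2-fold call and a minimum of 1 CPM.

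All 10 genes are named. From each list and comparison the rule names up to 4 measured genes of largest absolute ratio among those 1.5-fold apart, and the text prints a part of these. The rule also names the 3 genes of closest pattern. Fgfrl1 and Junos were named after their values were seen. The 10 genes and all lists (other FGF ligands, FGF receptors, RAS and ERK cascade, feedback, ETS, immediate early, ERK output, JNK and p38, and markers of embryonic stem cells, fibroblasts, primitive endoderm and trophoblast) were chosen with earlier results of these data known. Gene positions, 1-based, are those of GENCODE M21 on mm10. Python 3.11.15, numpy 2.4.6, scipy 1.17.1, pandas 2.3.3 and matplotlib 3.10.9 were used.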

Additional observations from a re-analysis of the deposited data

How the results depend on the processing

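No paired analysis was possible because each group is 1 library. Counts of the 10 genes at least 1.5-fold apart moved by more than 1.5 times as follows, and the cause was not tested unless given. With median-of-ratios scaling the count at 200 mM against NS was 4 and not 2, since that scaling lowers all sorbitol ratios. Thinning every barcode to 500 UMIs gave 4 in each of the sorbitol comparisons with NS, against 2 each with all UMIs. Requiring 2-fold gave 1 at 200 mM and 1 at 250 mM against NS, 2 against the 5 at 1.5-fold for 300 against 200 mM, and 3 against 6 for 300 mM against ND. Requiring 1000 genes per barcode left 8 barcodes in ND, 9255 in NS and 22, 47 and 19 over the doses, with a value for 20 of 60 ratios, and gave 0 for ND against NS, 2 for 300 against 200 mM and 1 for 300 mM against ND. Short of a change of more than 1.5 times, ND against NS counted 2 genes and not 3 with all deposited barcodes, because Spry4 sits at the threshold. None of the ratios past 1.5-fold changed direction under these settings, where a value could be had. Of 60 ratios, 42 moved less than their counting interval with median-of-ratios scaling, 51 with thinning, 58 without mitochondrial and ribosomal protein genes, and 60 with all barcodes or without the deepest 5%. Of the ratios short of 1.5-fold, some changed sign, among them Spry4 at 250 mM against NS (0.01, and -0.20 with median-of-ratios scaling) and Egr1 at 250 mM (-0.29, and 0.11 when thinned). Of 72 counts for the other lists, 12 moved with median-of-ratios scaling, 14 without mitochondrial and ribosomal protein genes, 8 with thinning and 4 without the deepest 5%. Thinning to 700 UMIs moved 47 of the 50 shares of barcodes past their intervals, since a share grows with depth. Fos rests on 34 to 163 UMIs per library, which limits its ratios most.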
